A study of Mus musculus with 2 samples.

Results

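Genes of the lipid droplet were read in visceral fat of young mice. They are Plin1, Plin2, Plin4, Plin5 and Cidec, which code for proteins that coat the droplet, and Pnpla2, Pnpla3, Lipe, Mgll and Abhd5, which code for lipases, a relative of the lipases and a co-activator. They were taken by symbol as the droplet coat proteins and the enzymes of fat breakdown, and they make up 10 of the 56980 genes in the deposited tables. All 10 were found.

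The study sequenced RNA of single nuclei from fat depots of young and old female C57BL/6J mice. The values here come from gonadal visceral fat (VAT) of mice aged 2 months, with 2 libraries from 1 mouse each, called replicate 1 and replicate 2. Nuclei were isolated from the tissue and captured on a Singleron chip, although other label fields name 10x Genomics and adipocytes. The question is in which nuclei these genes are read and how their levels differ between adipocyte-like nuclei with and without Cidea, a droplet protein gene typical of brown and beige fat cells.

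A fat cell keeps triglyceride in a droplet whose surface proteins decide how easily lipases reach it. Perilipins and Cidec cover and enlarge the droplet. Pnpla2, held back until Abhd5 is released from Plin1, removes the first fatty acid, Lipe removes the next and Mgll the last.

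In replicate 1, 2833 of 7344 called nuclei passed the filters, with 8466237 UMIs in all and a median of 2221 UMIs per nucleus. In replicate 2, 12225 of 17148 passed, with 48068273 UMIs and a median of 2726. Median mitochondrial shares of UMIs were 6.2% and 0.621%. The libraries had 27 barcodes of passing nuclei in common. Of the passing nuclei, 6059 were adipocyte-like, 2392 mesothelial-like, 1573 like fibro-adipogenic progenitors (FAP-like), 1397 immune-like, 596 endothelial-like and 208 smooth muscle-like, and a cluster of 2807 nuclei led by Ttn stayed unnamed. Adipocyte-like nuclei were deeper than the others, with medians of 2950.5 UMIs in replicate 1 and 6159 in replicate 2, beside 1636 to 2030 and 1827 to 2091.5 in the other named types. The smallest groups were 24 smooth muscle-like and 83 endothelial-like nuclei of replicate 1.

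Levels are in CPM, the UMIs of a gene per 1000000 UMIs of all nuclei of a type in a library, for replicate 1 and then replicate 2. Intervals are 95% intervals and cover counting error only. Adjusted p values come from edgeR's quasi-likelihood test on UMIs summed per library and type, with Benjamini-Hochberg (BH) adjustment over all genes tested. The fit takes the library as a block, which removes the mean difference of each gene between the mice. The p values rest on the spread that remains between the sums, with n = 2 mice.

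Adipocyte-like nuclei were first set against the mean of the 5 other named types. Every one of the 10 genes was higher in adipocyte-like nuclei. So were 4530 of the 13952 genes tested, or 32.5%, while 4292 were lower. Without the filter on low counts, 7090 of 42116 genes were higher and 3641 lower. UMIs of the 10 genes were also found in the other named types, except that smooth muscle-like nuclei had none of Plin5 and, in replicate 1, only 2 of Plin2 and 1 of Abhd5, under the floor of 3 UMIs, and that in replicate 1 FAP-like nuclei had none of Plin5 and endothelial-like nuclei only 2. The fold changes include scaling factors of edgeR's TMM method, which were 0.76 and 0.73 for the adipocyte-like sums and 0.93 to 1.25 for the other types, so they exceed the plain ratios of CPM.

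**Figure D1:**
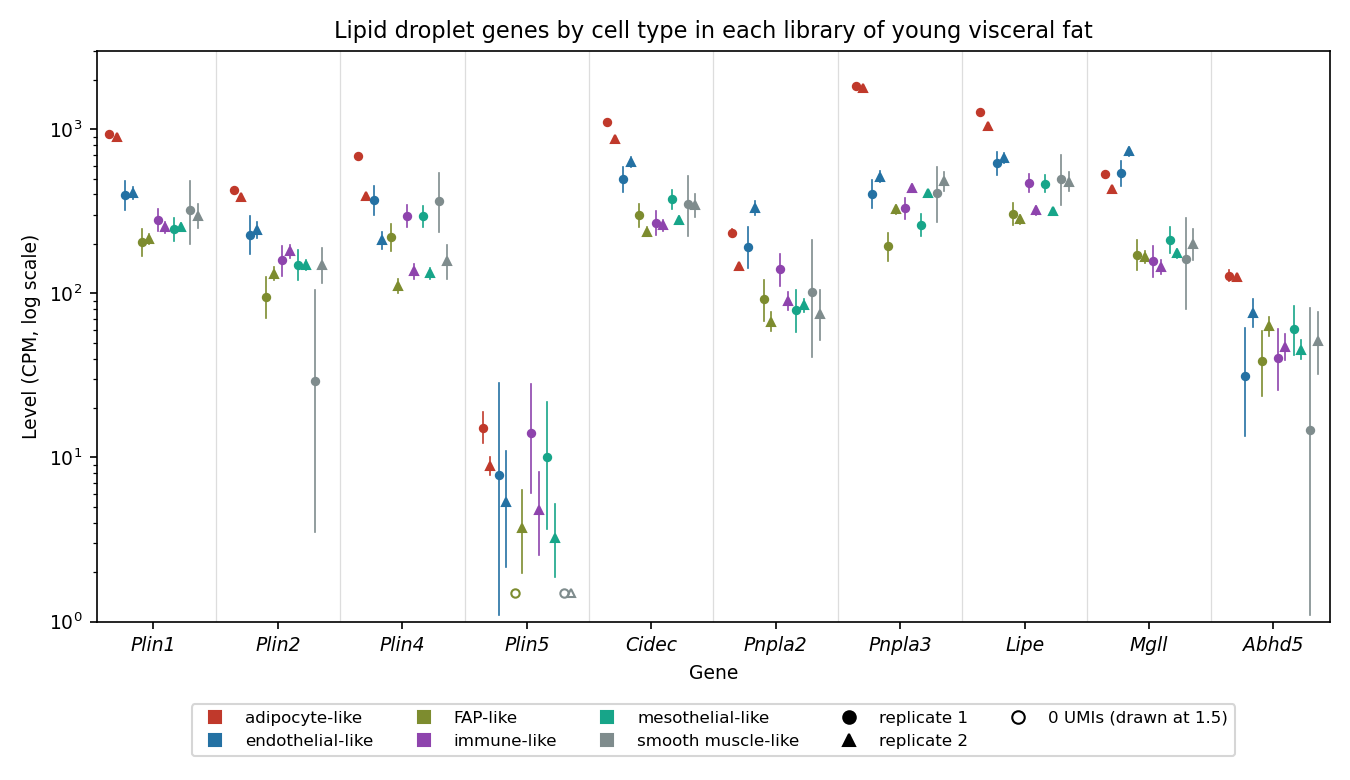
Level of each gene in CPM (log axis) in the 6 named cell types, with circles for replicate 1, triangles for replicate 2 and bars for exact Poisson 95% intervals. In both replicates, adipocyte-like nuclei had the highest level of each gene but Pnpla2, highest in endothelial-like nuclei of replicate 2, and Mgll, highest there in both replicates.

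Among the coat proteins, Plin1 (chromosome 7 of GRCm39, 79369966 to 79382718) guards the droplet of fat cells and binds Abhd5. It was at 938 and 897 CPM in adipocyte-like nuclei and at 205 to 396 CPM in the other types of replicate 1 and 214 to 407 CPM in those of replicate 2, a log2 fold change of 2.20 (SE 0.14, edgeR BH-adjusted p = 1.48e-22). The groups did not overlap, and both mice gave nearly the same adipocyte level. Plin2 (chromosome 4, 86565912 to 86588459), a coat protein of many tissues, was at 424 and 384 CPM beside 29.2 to 227 and 131 to 244 CPM (log2 fold change 1.90, SE 0.16, edgeR BH-adjusted p = 1.50e-17). Its lowest value, in smooth muscle-like nuclei of replicate 1, rested on 2 UMIs. Plin4 (chromosome 17, 56406617 to 56416931), which covers small new droplets, was at 688 and 390 CPM beside 220.1 to 368 and 111 to 209.8 CPM (log2 fold change 1.80, SE 0.15, edgeR BH-adjusted p = 7.99e-18). Within each mouse, adipocyte-like nuclei were above every other type, although their level in replicate 2 was close to the 368 CPM of endothelial-like nuclei in replicate 1. Plin4 overlaps Hdgfl2 on the opposite strand over 4193 bases, and since the counting strand is not stated, part of its UMIs may belong to that gene.

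Cidec (chromosome 6, 113400691 to 113412721), which lets droplets fuse into the single large droplet of white fat cells, was at 1105 and 873 CPM beside 269 to 494 and 237 to 628 CPM, a log2 fold change of 2.01 (SE 0.15, edgeR BH-adjusted p = 7.44e-20). The groups did not overlap. Plin5 (chromosome 17, 56418446 to 56424610), which ties droplets to mitochondria in cells that burn fat, was the scarcest of the 10 genes, at 15.2 CPM (87 UMIs) and 8.85 CPM (258 UMIs) in adipocyte-like nuclei. The other 5 types together held 16 and 50 UMIs, or 7.88 and 3.78 CPM, so adipocyte-like nuclei were 1.93-fold (1.13 to 3.53) and 2.34-fold (1.72 to 3.23) higher. Immune-like nuclei of replicate 1, at 14.1 CPM from 8 UMIs, were close to the adipocyte-like value. Smooth muscle-like nuclei had 0 UMIs of Plin5 in both libraries. The floor of 3 UMIs is 43.8 CPM in replicate 1, above the adipocyte-like level. It is 6.64 CPM in replicate 2, where the adipocyte-like level was 1.33 times the floor. The intervals of the 2 types in replicate 2 still overlapped, at 0 to 8.17 CPM in smooth muscle-like and 7.8 to 10.0 CPM in adipocyte-like nuclei. The fitted log2 fold change of 2.91 (SE 0.62, edgeR BH-adjusted p = 4.48e-05) includes that type and is no bound. The plain log2 ratios of adipocyte-like nuclei to the mean of the types, with 0.5 UMIs added, were 1.26 and 1.41.

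Among the lipases, Pnpla2 (adipose triglyceride lipase; chromosome 7, 141034404 to 141040656) was at 234 and 147 CPM in adipocyte-like nuclei and at 78.8 to 192 and 67.3 to 330.3 CPM in the other types. Its log2 fold change of 1.22 (SE 0.17, edgeR BH-adjusted p = 6.13e-09) was the smallest of the 10, and in replicate 2 endothelial-like nuclei were above adipocyte-like nuclei. Replicate 2 alone gave a plain log2 ratio of 0.48 and replicate 1 gave 1.00. Pnpla3 (chromosome 15, 84051943 to 84073723), a relative of Pnpla2 that binds Abhd5, was at 1842 and 1778 CPM beside 193 to 409 and 324 to 513 CPM, a log2 fold change of 2.81 (SE 0.15, edgeR BH-adjusted p = 5.08e-27). It had the highest CPM of the 10 genes in adipocyte-like nuclei of both mice. Lipe (hormone-sensitive lipase; chromosome 7, 25078880 to 25098135) was at 1273 and 1044 CPM beside 304 to 619 and 283 to 667 CPM (log2 fold change 1.92, SE 0.15, edgeR BH-adjusted p = 1.22e-18), with no overlap. Lipe lies within 4732471J01Rik on the opposite strand, which leaves the origin of some of its UMIs uncertain.

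Mgll (monoglyceride lipase; chromosome 6, 88652108 to 88805342) was at 529 and 434 CPM in adipocyte-like nuclei, but endothelial-like nuclei held 537 and 731 CPM, so the groups overlapped. Its log2 fold change against the mean of the 5 types was 1.56 (SE 0.15, edgeR BH-adjusted p = 2.19e-14). Abhd5 (chromosome 9, 122180621 to 122222936), the co-activator of Pnpla2, was at 128 and 125 CPM beside 14.6 to 60.4 and 45.4 to 76.3 CPM (log2 fold change 1.85, SE 0.19, edgeR BH-adjusted p = 3.51e-14), with no overlap, though its lowest value, in smooth muscle-like nuclei of replicate 1, rested on 1 UMI. Mgll, Pnpla3, Pnpla2, Cidec and Abhd5 each overlap annotated noncoding genes as well.

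The median log2 fold change of the 10 genes was 1.91, and 1.90 without Plin5, beside 0.10 for all genes tested. Taken relative to that median of all genes, the changes of the 9 genes other than Plin5 ran from 1.12 for Pnpla2 to 2.71 for Pnpla3. For Plin5 the fitted value is no guide to its rank, and its plain ratios, 1.26 and 1.41, were below those of Pnpla3, 2.58 and 2.05. DESeq2, which differs in scaling and in its test, called 2340 genes higher and 5088 lower, with a median of -0.224, and all 10 genes were higher and called there too.

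Shares of nuclei with a UMI were compared after every nucleus was thinned to 1000 UMIs. Pnpla3 was seen in 73.3% (71.0 to 75.5%) and 76.5% (75.3 to 77.8%) of adipocyte-like nuclei and in 10.8 to 25% and 14.3 to 24.5% of nuclei of the other named types. Without thinning, these shares were 91.3% and 97.5% beside 15.5 to 50% and 23.5 to 31.8%. Plin5 was seen in 1.34% (0.831 to 2.04%) and 0.824% (0.581 to 1.13%) of adipocyte-like nuclei and in 0.803% (0.0974 to 2.87%) and 0.28% (0.103 to 0.608%) of mesothelial-like nuclei. The intervals of these 2 types overlapped widely in replicate 1 and met only between 0.581 and 0.608% in replicate 2. The adipocyte-like share was the highest of the named types in both replicates, beside 0 to 0.803% and 0 to 0.39% in the others, though the intervals of smaller types overlapped its own. Before thinning, Plin5 was in 4.59% and 4.43% of adipocyte-like and in 2.41% and 0.747% of mesothelial-like nuclei, whose median depths were 1823 and 1902 UMIs.

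The unnamed cluster led by Ttn, which had no type and entered no test, held more UMIs of these genes in sum than any named type but the adipocyte-like. Over all 10 genes it was at 5180.2 and 4292 CPM, beside 7176 and 6081 CPM in adipocyte-like and 3276 and 3811 CPM in endothelial-like nuclei. Its median depths were 1547.5 and 1931 UMIs. Pnpla3 was at 1037 and 1179 CPM there, Lipe at 1037 and 748 CPM, Cidec at 927 and 686 CPM and Plin1 at 688 and 598 CPM. After thinning, Pnpla3 was seen in 42% (37 to 47.1%) and 49.4% (47.3 to 51.4%) of its nuclei, between the shares of adipocyte-like nuclei and those of the other named types. Plin2 was at 191 and 227 CPM, Mgll at 406 and 334 CPM and Pnpla2 at 187 and 132 CPM, each below its endothelial-like level in both mice. Plin5, at 18.5 CPM (9.86 to 31.7, 13 UMIs) in replicate 1 and 5.67 CPM in replicate 2, was above the adipocyte-like value in replicate 1, with overlapping intervals, and below it in replicate 2. Its thinned share was 1.55% and 0.413%. The source of these UMIs was not tested. With 15 components no cluster stayed unnamed, and 7559 nuclei were adipocyte-like and 3697 mesothelial-like.

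The other types were then compared among themselves, each with the mean of the remaining non-adipocyte types, since UMIs of adipocyte genes were present in all of them. Among these named types endothelial-like nuclei stood out. In them, 7 of the 10 genes were called higher, as were 1259 of 13952 genes (9.02%). The summed level of 11 adipocyte marker genes was also highest in endothelial-like nuclei among these types. It was 8794 and 12098 CPM, beside 4893 to 6656 and 7873 to 11211 CPM. FAP-like nuclei had 2 of the 10 called lower (5.28% of all genes) and immune-like nuclei had 1 (10.8%). In mesothelial-like and smooth muscle-like nuclei edgeR called 0 of the 10 in either direction, beside 16% and 7.7% of all genes. At an unadjusted p under 0.05 the counts in those types were 1 and 2, and DESeq2 called 0 in both. In smooth muscle-like nuclei, Mgll and Plin2 were each called lower in 2 of 7 alternatives, those with 15 components and without integration (lowest edgeR BH-adjusted p 0.00217 and 0.024).

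Endothelial-like nuclei held Mgll at 537 and 731 CPM, and the other 4 types at 157 to 211 and 145 to 199 CPM, a log2 fold change of 1.88 (SE 0.17, edgeR BH-adjusted p = 1.98e-15). Pnpla2 was at 192 and 330.3 CPM beside 78.8 to 139.6 and 67.3 to 90.1 CPM, with a log2 fold change of 1.67 (SE 0.20, edgeR BH-adjusted p = 8.69e-11). For both genes the endothelial-like values were above every other non-adipocyte value, and the calls held under each of 8 alternatives. Cidec (0.93), Plin2 (0.78), Lipe (0.76), Plin1 (0.65) and Plin4 (0.52) had smaller log2 fold changes, with edgeR BH-adjusted p from 2.66e-05 for Cidec to 0.0449 for Plin4. None of these 5 was called without the library as a block, where 2 of the 10 genes remained past the threshold. With a mitochondrial limit of 5%, Cidec was called and the other 4 were not, and without the filter on low counts Plin4 was not. Pnpla3, Plin5 and Abhd5 were not called (edgeR BH-adjusted p 0.16, 0.37 and 0.436), though Pnpla3 was called higher in 2 of 8 alternatives, those with 15 components and with likely doublets removed (edgeR BH-adjusted p 0.0313 and 0.00256).

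Mgll was lowest in immune-like nuclei, at 157 and 145 CPM (log2 fold change -0.76, SE 0.20, edgeR BH-adjusted p = 0.00182), and without the library block this was not called (edgeR BH-adjusted p = 0.109, with a range of 0.000663 to 0.109 over the alternatives). Cidec was not called there (log2 fold change -0.48, edgeR BH-adjusted p = 0.0599), although it was in 1 of 8 alternatives. In FAP-like nuclei, Lipe was at 304 and 283 CPM (log2 fold change -0.57, edgeR BH-adjusted p = 0.0288) and Pnpla3 at 193 and 324 CPM (-0.54, edgeR BH-adjusted p = 0.0409). These FAP calls were lost in 5 and 4 of the 8 alternatives, while DESeq2 called 4 genes lower, with Plin1 and Plin4 added. With likely doublets removed Plin1, Plin4, Cidec and Pnpla2 were called lower there too (edgeR BH-adjusted p 0.00441, 0.0377, 0.0014 and 0.0208). In smooth muscle-like nuclei, where the median of all genes was -0.136, no member apart from Plin5 moved by more than 0.64 on the log2 scale.

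A comparison of endothelial-like with adipocyte-like nuclei was added after these values had been seen. For Mgll the log2 fold change was -0.06 (SE 0.22, edgeR BH-adjusted p = 0.848) and for Pnpla2 it was 0.12 (SE 0.24, edgeR BH-adjusted p = 0.721), so no difference was called for either. The other genes except Plin5, 7 in all, were called lower in endothelial-like nuclei, from -1.26 for Cidec to -2.49 for Pnpla3, as were 2860 of all genes (20.5%), beside 2760 higher. The plain log2 ratios of Mgll were 0.03 and 0.75. Those of Pnpla2, -0.27 and 1.17, differed in sign between the mice. DESeq2, with another scaling and another test, called 3121 genes higher and 1391 lower, with a median of 0.235, and it also called 7 of the 10 genes. Without the library block edgeR called 6, as Plin4 missed the threshold (edgeR BH-adjusted p = 0.0773), and without the filter on low counts it called Plin5 too (edgeR BH-adjusted p = 0.0316).

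Thinned to equal depth, Mgll was seen in 38.6% (28.1 to 49.9%) and 44.1% (39.7 to 48.5%) of endothelial-like nuclei, in 36.5% (34.2 to 39%) and 32.6% (31.3 to 34.0%) of adipocyte-like nuclei and in 8.76 to 16.9% and 10.0 to 14.7% of the other types. Unthinned, the shares were 61.4% and 63.5% of endothelial-like nuclei, at median depths of 2030 and 1827 UMIs, and 68.0% and 81.0% of adipocyte-like nuclei. Only in replicate 2 did the thinned intervals of endothelial-like and adipocyte-like nuclei lie apart, with the endothelial-like share higher.

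UMIs of each gene were also set against those of 6 genes known from fat cells (Adipoq, Acvr1c, Adrb3, Lep, Retn and Slc7a10). The comparison assumes that RNA of a single source would keep its genes in 1 ratio in every type of a library. That assumption was not tested. For Cidec the ratio to the 6 genes was 0.23 and 0.252 in adipocyte-like nuclei and 0.157 to 0.238 and 0.233 to 0.257 in the other named types, nearly level in replicate 2. Lipe was at 0.265 and 0.302 beside 0.233 to 0.315 and 0.256 to 0.359, and in replicate 2 the endothelial-like ratio of 0.256 (0.237 to 0.275) was below the adipocyte-like one (0.298 to 0.306). Plin1, Plin2 and Plin4, called higher by CPM in endothelial-like nuclei, had ratios of 0.156, 0.0936 and 0.0804 there in replicate 2, below those of each other named type (0.215 to 0.227, 0.111 to 0.163 and 0.112 to 0.123 without adipocyte-like nuclei). In replicate 1 this held among non-adipocyte types for Plin4 alone (0.153 beside 0.169 to 0.231). Mgll was at 0.223 (0.184 to 0.268) and 0.28 (0.261 to 0.301) in endothelial-like nuclei and at 0.0921 to 0.134 and 0.131 to 0.167 in the other 4 non-adipocyte types, with 0.11 and 0.125 in adipocyte-like nuclei. Its endothelial-like ratio was above the others in both mice. Pnpla2 was at 0.0797 (0.0583 to 0.107) and 0.127 (0.114 to 0.14) there beside 0.0499 to 0.0818 and 0.0565 to 0.0813, so it stood apart from those types in replicate 2 and not in replicate 1. In adipocyte-like nuclei it was at 0.0487 (0.046 to 0.0514) and 0.0424 (0.0411 to 0.0437), below the endothelial-like ratio in both. Pnpla3 was highest in adipocyte-like nuclei, at 0.383 and 0.514, and between 0.148 and 0.259 and between 0.197 and 0.397 in the other named types, with 0.245 and 0.427 in the unnamed cluster.

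**Figure D2:**
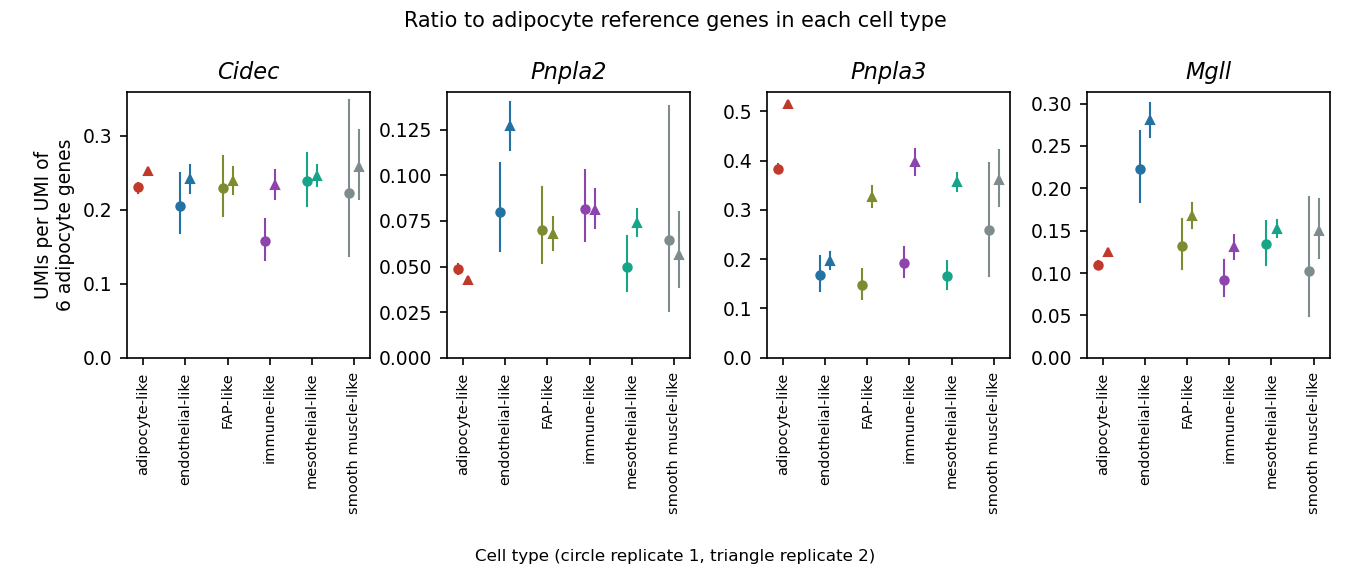
UMIs of 4 genes per UMI of the 6 adipocyte reference genes in each cell type, with circles for replicate 1, triangles for replicate 2 and bars for exact binomial 95% intervals. The ratio of Mgll in endothelial-like nuclei, 0.223 and 0.28, was above that of each other type in the same library.

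The reference itself was not level. Adipoq and Retn were higher in endothelial-like nuclei than in the other non-adipocyte types by 1.64 (edgeR BH-adjusted p = 4.56e-12) and 1.43 (edgeR BH-adjusted p = 4.11e-10) on the log2 scale, while Acvr1c, Adrb3, Lep and Slc7a10 were not called. Against these 4 genes alone, a set chosen after seeing the data, Mgll in endothelial-like nuclei was 2.49 and 3.27 times the mean of the other 4 types, Pnpla2 1.53 and 3.16 times and Cidec 1.25 and 1.73 times. Plin1 was at 1.24 and 1.23 times, Plin2 at 1.73 and 1.21, Plin4 at 1.04 and 1.2 and Lipe at 1.19 and 1.49. The low ratios of Plin1, Plin2 and Plin4 in replicate 2 were thus not seen against these 4 genes. Plin5 was at 1.15 and 1.28 times, Pnpla3 at 1.13 and 0.958 and Abhd5 at 0.665 and 1.11. Whether Mgll and Pnpla2 UMIs in endothelial-like nuclei came from those cells or from fat cell RNA was not tested and cannot be told apart by these ratios.

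The next comparison set adipocyte-like nuclei with a Cidea UMI against those without. There were 171 and 559 nuclei with Cidea and 1397 and 3932 without. Nuclei with Cidea were deeper, with medians of 4488 and 7454 UMIs beside 2807 and 5934.5. Cidea was seen in 4.72% and 3.76% of adipocyte-like nuclei after thinning and in 0 to 2.41% and 1.06 to 2.14% of the other types, and without thinning in 10.9% and 12.4% beside 0 to 4.82% and 2.04 to 5.07%, so some nuclei with a Cidea UMI may hold it as background. Of the 10 genes, 2 were called higher with Cidea and 1 lower. Of all 13892 genes, 607 (4.37%) were called higher and 449 (3.23%) lower.

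Plin5 was at 40.6 CPM (36 UMIs) and 26.0 CPM (112 UMIs) with Cidea and at 10.6 CPM (51 UMIs) and 5.87 CPM (146 UMIs) without. The ratio was 3.84 (2.44 to 6.01) and 4.43 (3.43 to 5.70), and the log2 fold change 2.07 (SE 0.25, edgeR BH-adjusted p = 3.24e-11). Both values with Cidea were above both without. The change was 1.87 after thinning, where edgeR's BH-adjusted p was 0.117 and no longer past the threshold. Nuclei were grouped there by the Cidea UMIs left after thinning, found in 4.72% and 3.76% of adipocyte-like nuclei. Plin5 was also not called without the library block (edgeR BH-adjusted p = 0.556, with a range of 3.27e-13 to 0.556 over the alternatives).

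Plin2 was at 510.2 and 463 CPM with Cidea and at 408 and 369.9 CPM without (log2 fold change 0.32, SE 0.11, edgeR BH-adjusted p = 0.0372). The groups did not overlap, but the call was lost in 7 of 8 alternatives, including DESeq2 and the set matched in depth (adjusted p 0.173 in DESeq2 and 0.26 in edgeR, with a range of 0.0338 to 1.00 over the alternatives). Cidec went the other way, at 849 and 692 CPM with Cidea and 1151 and 904 CPM without (log2 fold change -0.41, SE 0.10, edgeR BH-adjusted p = 0.00203), lower with Cidea in each mouse and with no overlap. That call was lost only without the library block, of 8 alternatives. Plin1, at 912 and 931 CPM with Cidea and 943 and 892 CPM without, and Plin4, at 551 and 361 CPM and 713 and 395 CPM, were not called (edgeR BH-adjusted p 0.977 and 0.186). Plin4 was called lower, by -0.80, after thinning, and by -0.47 with at least 2 Cidea UMIs.

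None of the lipases was called, with Pnpla2 nearest on the higher side. It was at 298 and 168 CPM with Cidea and at 222 and 143 CPM without (log2 fold change 0.32, SE 0.12, edgeR BH-adjusted p = 0.0759). Abhd5 was at 94.8 and 105 CPM with Cidea and at 135 and 129 CPM without (log2 fold change -0.37, SE 0.13, edgeR BH-adjusted p = 0.0683). It was lower in both mice without overlap, and it was called when depth was matched (-0.51) and with at least 2 Cidea UMIs (-0.70). Pnpla3 was at 1447 and 1653 CPM and 1915 and 1799.5 CPM (log2 fold change -0.26, edgeR BH-adjusted p = 0.111), and called with depth matched (-0.31). For Lipe, at 1249 and 1086 CPM beside 1277 and 1037 CPM, and Mgll, at 575 and 395 CPM beside 520.3 and 441 CPM, the mice differed in sign and the log2 fold changes were 0.02 and -0.02 (edgeR BH-adjusted p 0.96 and 0.968).

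**Figure D3:**
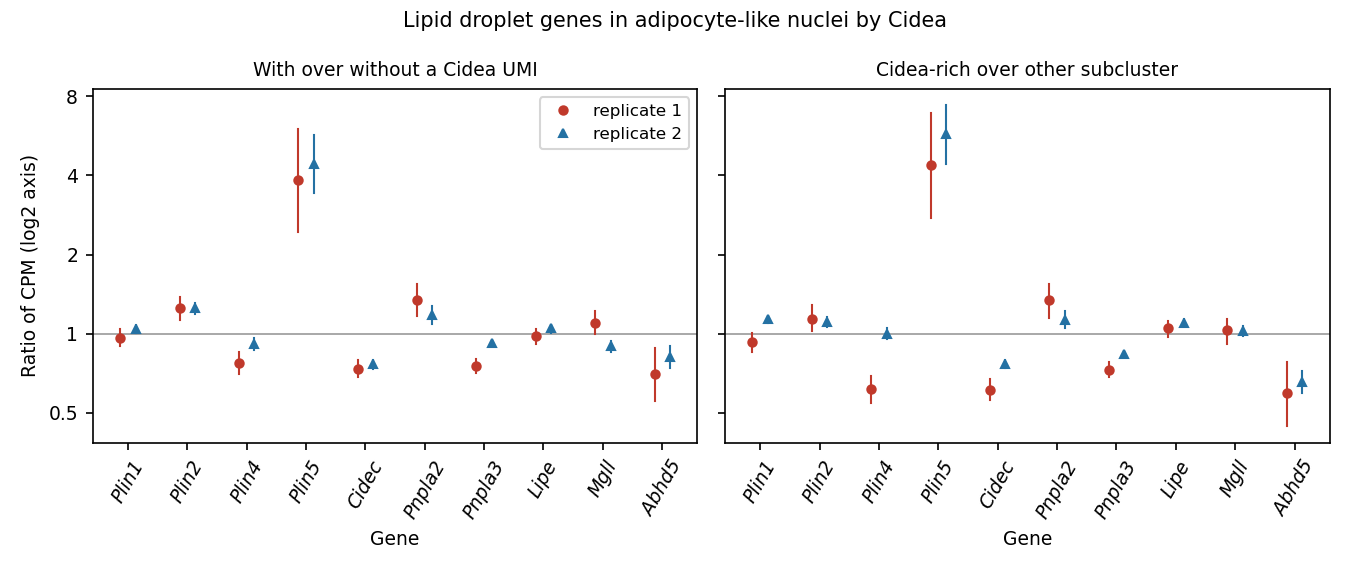
Ratio of CPM (log2 axis) of each gene in adipocyte-like nuclei with over without a Cidea UMI (left) and in the Cidea-rich over the other subcluster (right), with exact 95% intervals for counting error. Plin5 was 3.84 and 4.43 times higher with Cidea, and Cidec was lower in both replicates of both panels.

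Clustered again, adipocyte-like nuclei fell into a main subcluster of 5164 nuclei and one of 878 nuclei (155 and 723) led by Cidea, Ntrk3, Esrrg and Ucp1, in which 63.9% and 49.8% of nuclei held a Cidea UMI, beside 5.11% and 5.24% in the main one. The members and Cidea were not used to draw them. Here 1 of the 10 genes was called higher and 2 lower, beside 616 (4.32%) and 567 (3.98%) of 14251 genes. Since the subclusters came from the same counts, p values here say how well they separate.

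Plin5 was at 47.5 and 26.8 CPM in the Cidea-rich subcluster and at 10.8 and 4.68 CPM in the main one (log2 fold change 2.35, SE 0.27, edgeR BH-adjusted p = 1.02e-15). Cidec was at 712 and 701 CPM and at 1161 and 912 CPM (log2 fold change -0.55, SE 0.14, edgeR BH-adjusted p = 0.00251). Abhd5 was at 80.5 and 87.5 CPM and at 135 and 133 CPM (log2 fold change -0.68, SE 0.17, edgeR BH-adjusted p = 0.00141). For each of these genes the groups did not overlap, with Plin5 high and Cidec and Abhd5 low in the Cidea-rich subcluster. No call remained without the library block or at a resolution of 0.3, where the Ucp1 nuclei left the adipocyte-like cluster, and that of Abhd5 was also lost in DESeq2 and under a mitochondrial limit of 5%. Plin2, at 477 and 416 CPM beside 417 and 376 CPM, was not called (log2 fold change 0.15, edgeR BH-adjusted p = 0.757). Plin4, at 443 and 391 CPM beside 722 and 389 CPM, was lower in replicate 1 alone, and neither it nor the remaining 5 genes were called.

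Other genes of the droplet and of fat breakdown gave a frame for these values. Of 14 listed symbols of other droplet protein genes, 13 were found and 9 tested between cell types. Of these 9, 5 were higher and 1 lower in adipocyte-like nuclei, where 32.5% of all genes tested were higher, and their median log2 fold change was 0.87. All 12 genes in a list of other lipases and lipolysis regulators were tested and 11 were higher, with a median of 1.32, beside 0.10 for all genes. Aifm2 was at 128 and 109.6 CPM in adipocyte-like nuclei and rose by 1.68 on the log2 scale, Fitm2 by 1.64, Bscl2 by 1.49 and Ldah by 1.43. Hsd17b11, at 18.9 and 12 CPM beside 43.8 to 99.0 and 53.1 to 76.8 CPM in the other types, was lower by -1.80. Prkar2b, which codes for a regulatory subunit of protein kinase A, was at 516 and 779 CPM and rose by 2.34, Ddhd2 by 2.00, the Pnpla2 inhibitor gene G0s2 by 2.00 and Ces1d by 1.89. Cidea itself was higher by 2.15.

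With a Cidea UMI, 2 of 11 tested droplet protein genes and 5 of 12 lipase and regulator genes were called higher and 1 of the latter lower, where 4.37% of all genes were higher and 3.23% lower, with medians of 0.01 and 0.35 beside -0.02 for all genes. Plin3 was at 38.4 and 32.7 CPM with Cidea and at 17.6 and 19.0 CPM without (log2 fold change 0.89), and Aifm2 rose by 0.64. Prkar2b was at 687 and 1283 CPM with Cidea and at 485 and 692 CPM without (log2 fold change 0.71), Lipa rose by 0.87, Prkaca by 0.61 and Aqp7 by 0.59. G0s2, at 1252 and 467 CPM with Cidea and 1882 and 487 CPM without, was lower by -0.32 (edgeR BH-adjusted p = 0.037), and most of the difference lay in replicate 1.

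Singled out after their values were seen, Aqp7 and Fabp4 were the list genes with the largest change in endothelial-like nuclei. Aqp7, a glycerol channel, was at 133 and 103 CPM there and at 38.5 and 28.6 CPM in adipocyte-like nuclei, and Fabp4, a fatty acid carrier, at 7168 and 5213 CPM and at 4517 and 2083 CPM. Against the other non-adipocyte types they rose by 2.88 and 2.03 on the log2 scale (edgeR BH-adjusted p 5.53e-15 and 2.94e-17).

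To compare the genes with each other, levels were divided by exon length (CPM per kilobase). The resulting order holds only if the UMIs of a gene grow with its length, which was not tested. By CPM alone, Lipe (1273 and 1044) was above Cidec (1105 and 873) in both mice. In adipocyte-like nuclei Cidec was at 357 and 283 and Pnpla3 at 346 and 334, followed by Lipe at 214 and 175 and Plin1 at 148 and 141. Plin4 (86.1 and 48.8), Mgll (85.6 and 70.3), Pnpla2 (59.4 and 37.3) and Plin2 (55.2 and 49.9) formed a middle group, and Abhd5 (17.9 and 17.5) and Plin5 (4.97 and 2.89) were lowest. The order of Cidec and Pnpla3 differed between the mice. Nuclear RNA includes introns, and by the length of the whole gene Mgll fell to 3.45 and 2.83 CPM per kilobase, near Abhd5 at 3.03 and 2.96.

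**Figure D4:**
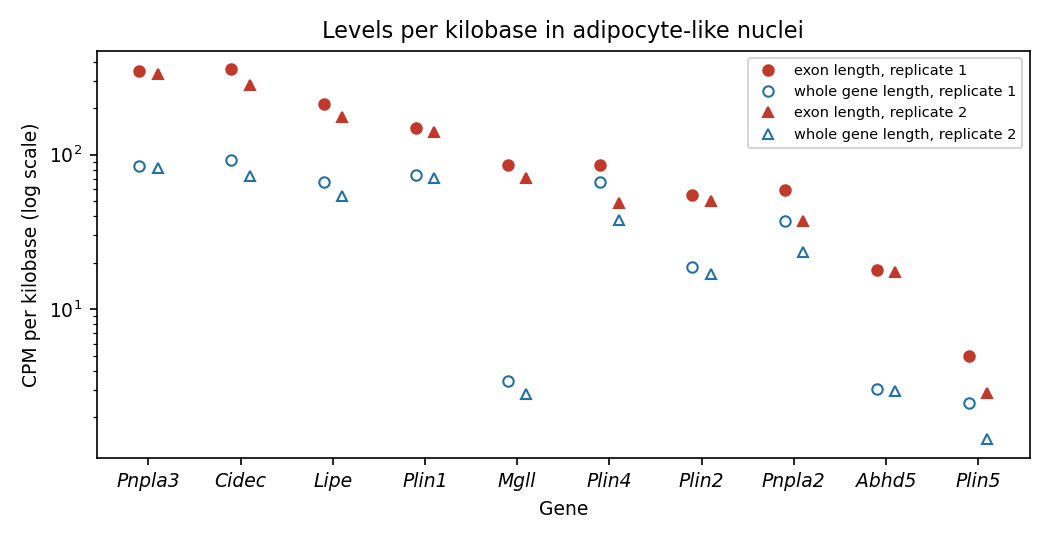
CPM per kilobase (log axis) of each gene in adipocyte-like nuclei, by exon length (filled) and whole gene length (open), with circles for replicate 1 and triangles for replicate 2. Pnpla3 and Cidec were highest and Plin5 lowest on both scales.

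The mice differed most for Plin4, Plin5 and Pnpla2, whose adipocyte-like levels in replicate 1 were 1.76, 1.72 and 1.59 times those in replicate 2. Over 12506 genes with at least 100 UMIs in that type the median of this ratio was 0.94, and these 3 genes lay at its percentiles 89.8, 89.1 and 86.4. The other 7 genes had ratios from 1.02 to 1.27. Library and mouse cannot be told apart.

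Over the 6 types and 2 libraries, 12 points that share the same nuclei filters and clusters, the genes most like Pnpla3 in log2 CPM centred within library were Acsl1 (Pearson r = 0.992), Tshr (0.989) and Acaca (0.988). Those most like Pnpla2 were Ldha (0.972), Cfd (0.962) and Adipoq (0.959), and those most like Mgll were Retn (0.954), Fabp4 (0.948) and Plxna2 (0.943). These are descriptions of 13951 candidate genes over points that are not independent.

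Promoters of 9 of the genes, all but Cidec, were taken from GRCm39 as 250 bases before and 50 bases after the start of the transcript that the annotation marks as canonical. That start lies inside the gene for Mgll, Pnpla2, Pnpla3 and Plin5, far inside it for Mgll, and other starts were not read. Plin4 and Plin5 are neighbours on the same strand, 1514 bases apart. The half-site AGGTCA of nuclear receptors, read on both strands, was in 3 of these 9 promoters and in 15% of 21603 promoters. It lay 175 bases before the start of Plin5, 233 and 55 bases before that of Plin2 and 9 bases before that of Abhd5. A direct repeat of such half-sites (DR1) was in 0 of the 9 and in 0.407% of all promoters, and the E-box CACGTG was in 1 of the 9, that of Mgll, and in 7.87% of all. Other motifs were searched as well. The GC box GGGCGG was in 6 of the 9 (42.8% of all promoters), the CCAAT box in 2 (39.8%) and a C/EBP site in 1 (10.7%). The TATA box (13.2%) and an oestrogen-related receptor site (1.25%) were in 0. GC content was 61.3% for Plin5, 57.3% for Plin4 and 48.7% for Plin2, beside a median of 54.3% for all promoters. Half-sites are in capitals in the sequences, which read in the direction of the gene.

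Plin5 promoter (GRCm39, minus strand, chr17:56424494-56424793): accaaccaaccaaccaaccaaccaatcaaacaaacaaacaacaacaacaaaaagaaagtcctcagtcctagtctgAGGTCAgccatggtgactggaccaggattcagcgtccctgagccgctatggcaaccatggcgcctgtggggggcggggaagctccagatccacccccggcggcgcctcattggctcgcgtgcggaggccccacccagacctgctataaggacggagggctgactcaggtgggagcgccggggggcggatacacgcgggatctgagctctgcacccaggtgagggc

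Plin4 promoter (GRCm39, minus strand, chr17:56416882-56417181): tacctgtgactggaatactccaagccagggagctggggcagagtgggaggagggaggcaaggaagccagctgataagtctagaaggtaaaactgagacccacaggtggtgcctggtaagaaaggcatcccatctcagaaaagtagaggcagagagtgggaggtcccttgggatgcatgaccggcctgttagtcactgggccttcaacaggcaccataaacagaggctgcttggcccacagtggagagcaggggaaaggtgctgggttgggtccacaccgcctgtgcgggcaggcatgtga

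Plin2 promoter (GRCm39, minus strand, chr4:86588410-86588709): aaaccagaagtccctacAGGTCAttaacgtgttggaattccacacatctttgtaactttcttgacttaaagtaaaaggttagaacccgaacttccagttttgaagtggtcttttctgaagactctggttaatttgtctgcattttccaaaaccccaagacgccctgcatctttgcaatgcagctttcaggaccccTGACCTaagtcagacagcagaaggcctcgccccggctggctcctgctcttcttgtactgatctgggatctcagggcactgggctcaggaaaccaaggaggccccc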

How the data were processed

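Nuclei of visceral fat of female C57BL/6J mice aged 2 months were read in 2 libraries, 1 mouse each. The authors aligned reads to GRCm39 with CeleScope and deposited counts, whole UMIs per gene and called nucleus, without normalization. The genes and both lists were chosen with earlier results of these data known. Filters kept nuclei with more than 500 genes, more than 1000 UMIs and a mitochondrial share below 15%. Clusters came from 1000 variable genes, without the members, list genes and Cidea, 30 components (16 for subclusters) corrected by Harmony (numpy 2.4.6), 20 neighbours and Leiden at a resolution of 0.1 (scanpy 1.11.5, leidenalg 0.10.2). Markers named the types, and a rule that ignores a rival type without leading markers, which named the mesothelial-like cluster, was set after clusters were seen. UMIs summed per library and type (at least 20 nuclei) were tested in edgeR 4.0.16 (R 4.3.3, TMM, filterByExpr, quasi-likelihood F test, library as block, adjusted p under 0.05), checked on simulated counts, with Cidea left out of its own test. List genes are named if called and among the 4 largest changes each way. Intervals are exact (scipy 1.17.1), and the floor is 3 UMIs. Positions and lengths are from GENCODE vM39, while the authors' annotation version and counting strand are not stated. Alternatives were DESeq2 1.42.0, no filter, no block, a mitochondrial limit of 5%, removal of the 6% of nuclei with the highest Scrublet scores, no Harmony, 15 components, a resolution of 0.3, at least 2 Cidea UMIs, thinning to 1000 UMIs, depth matching in 20 bins and single libraries.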

Additional observations from a re-analysis of the deposited data

How the results depend on the processing

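All 10 genes were called higher in adipocyte-like nuclei under each of 8 alternatives, except that Plin5 was not tested at a resolution of 0.3. Over all planned comparisons, 511 of 623 retested values kept their direction and side of the threshold, 38 lost a call, 18 gained one and 56 uncalled values changed sign. All 33 called values, those of the added comparison of endothelial-like with adipocyte-like nuclei included, had the same sign in both libraries, read singly without a test. The calls were made on these same libraries, so this agreement is no independent check of them. Calls among the other types, 10 in edgeR, were 2 without the library block, 5 with a mitochondrial limit of 5% (5 types and few nuclei of replicate 1) and 16 with likely doublets removed. With Cidea and between subclusters, 0 members were called without the block in edgeR (1 and 2 at an unadjusted p under 0.05) and 2 and 2 in DESeq2. At a resolution of 0.3 edgeR called 0 between subclusters (1 unadjusted), which were then different groups of nuclei. Of all genes, calls in endothelial-like nuclei fell from 1972 to 813 without the block and 1219 with the mitochondrial limit. Without the block they also fell from 2035 to 999 in FAP-like, 3221 to 2029 in immune-like, 2227 to 1152 in mesothelial-like and 1074 to 471 in smooth muscle-like nuclei. Between endothelial-like and adipocyte-like nuclei they fell from 5620 to 2837, and to 3566 with the mitochondrial limit. Those with Cidea fell from 1056 to 412 in DESeq2, 1 without the block and 657 with the mitochondrial limit. After thinning, which left fewer UMIs and grouped nuclei again by the Cidea UMIs left, they fell to 253. Those between subclusters fell from 1183 to 488 in DESeq2, 47 without the block and 280 at a resolution of 0.3. The cause of these shifts was not tested. Against 4 reference genes, added after seeing the data, the endothelial-like excess of Mgll moved from 1.91 to 2.88 times and of Pnpla2 from 1.5 to 2.35 times. Depth limits Plin5 most, with 16 and 50 UMIs in the other types, and smooth muscle-like nuclei, with 24 in replicate 1.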
